A study of Mus musculus with 2 samples.

Results

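The cytosolic ribosomal protein genes of 4T1 cells were taken as the protein-coding genes of GENCODE M21 whose symbols are those of numbered large-subunit (Rpl) or small-subunit (Rps) proteins, together with Rplp0, Rplp1, Rplp2, Rpsa and Fau. The rule leaves out the ribosomal S6 kinases and the pseudogenes, and it used no measured value. It found 84 genes among the 21911 listed by the authors, 51 of the large and 33 of the small subunit, on 20 chromosomes. The 4T1 line was derived from a mammary carcinoma of the mouse and is known to spread to the lung. RNA was sequenced from 1 library of cells kept for 48 h with PBS and 1 library of cells kept for 48 h with potassium oxalate. The oxalate dose stands as 20 µM in the treatment label and as 20 mM in the protocol. The paper that reported these libraries gives 20 µM for the sequenced cells. With 1 library per condition, no difference has a replicate check, the conditions were not tested against each other, and fewer cells of a kind cannot be told apart from less RNA per cell.

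The values are FPKM, fragments scaled to transcript length and to the mapped fragments of the library, so levels of different genes can be set side by side per unit of length. From the step between low FPKM values, the PBS library was estimated to hold 56800000 reads and the oxalate library 36500000. Of the markers fixed for the label, all 8 epithelial genes were between 125.33 and 703.31 FPKM in both libraries, and of 9 markers of immune, endothelial and stromal cells only Cd68 and Pdgfra had a mean of at least 1 FPKM.

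Each ribosome holds a small subunit, which reads the mRNA, and a large subunit, which joins the amino acids. Nearly all ribosomal proteins are present once per ribosome, while the acidic stalk proteins Rplp1 and Rplp2 are present in several copies and recruit elongation factors. Most of these mRNAs begin with a terminal oligopyrimidine (TOP) tract, through which the mTOR kinase and the binding protein Larp1 control their translation together. Their genes have left many processed pseudogenes in mammalian genomes, so reads from nearly identical copies are hard to place.

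The ribosomal protein genes were among the most abundant transcripts of both libraries. They held 8.40% of the FPKM sum with PBS and 8.03% with oxalate, a difference of -0.375 percentage points. Their summed FPKM was 47647 with PBS and 44870 with oxalate, 5.83% lower with oxalate. Among the 100 highest genes of each library were 30 of them with PBS and 29 with oxalate. Large-subunit genes held 4.91% and 4.68% of the sum with PBS and oxalate, and small-subunit genes 3.49% and 3.34%. The ratio of the large to the small subunit sum was 1.41 with PBS and 1.40 with oxalate, so the balance between the subunits was nearly the same in the 2 libraries. As a share of estimated reads in place of FPKM the values were 4.02% and 3.85%.

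Levels differed widely between the genes. Of the 84 genes, 70 had a mean of at least 100 FPKM, 11 were between 1 and 100 FPKM, and 3 were listed at 0 in both libraries. The highest was Rps26, a small-subunit protein beside the exit of the mRNA channel, at 3569.06 FPKM with PBS and 2936.74 with oxalate. Next came Rpsa, the laminin receptor homologue of the small subunit, at 2068.82 and 2228.41 FPKM. Rpl19 had 1778.91 and 1695.42 FPKM. Rplp0, the base of the stalk, had 1631.53 and 1403.52 FPKM, and Rpl7a 1392.98 and 1443.58 FPKM. The 10 highest genes held 35.1% of the ribosomal protein sum with PBS and 34.9% with oxalate. At the other end, Rpl22l1 had 6.22 and 4.17 FPKM, Rpl21 12.39 and 11.41 FPKM, Rpl29 21.56 and 24.54 FPKM, Rpl26 21.33 and 29.08 FPKM, and Rpl35a 27.59 and 24.63 FPKM. The order of the genes was almost the same in both libraries, with a Spearman correlation of 0.994 over the 81 genes above 0, given as a description across genes that share their libraries.

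**Figure D1:**
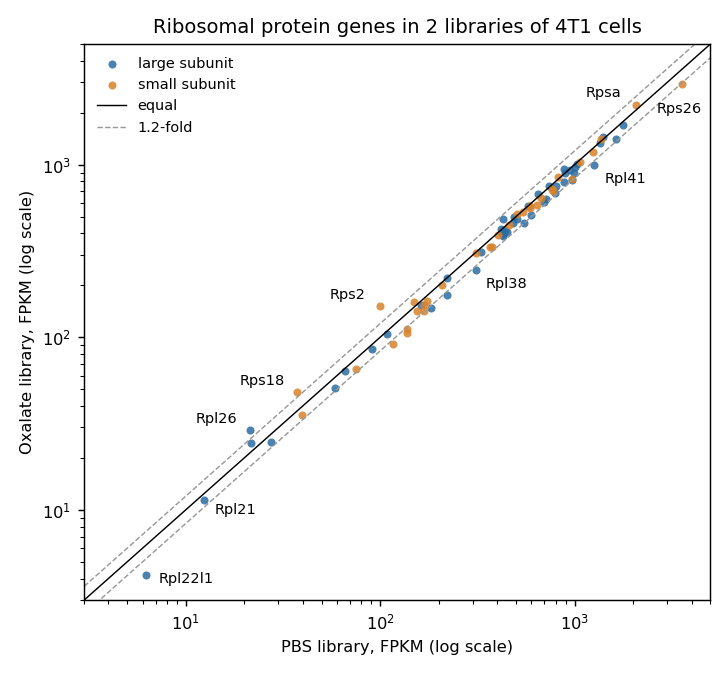
FPKM of 81 ribosomal protein genes in the PBS library (x axis, log scale) and the oxalate library (y axis, log scale), 1 point per gene, coloured by subunit, with the line of equal values and dashed lines at 1.2-fold. Points follow the line of equality from 6.22 to 3569.06 FPKM with PBS, most lie slightly below it, and Rps2, Rpl26 and Rps18 lie above the upper dashed line.

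Small differences in one direction prevailed. The difference was taken as log2((oxalate + 1)/(PBS + 1)) of the FPKM values, a scale that understates the change of low genes, over genes with a mean of at least 1 FPKM, 81 of the 84 here and 10267 in all. Of the 81 genes, 64 were lower and 17 higher in the oxalate library, that is 79.0% lower, whereas 49% of all genes compared were lower. Under 700 bp of mean coding transcript length, 79.4% of the ribosomal protein genes were lower, against 71.1% of other genes. From 700 bp it was 78.7% against 48.1%. The median log2 fold change of the 81 genes was -0.085, with quartiles of -0.17 and -0.012, beside a median of 0.0031 over all genes compared. Among genes at a mean of 100 FPKM or more, the median was -0.083 for the 70 ribosomal protein genes and -0.010 for 897 other genes. The median lengths of these groups were 737 and 1465 bp. Among these other genes the median was -0.075 up to 500 bp and -0.079 from 500 to 700 bp. Ribosomal protein genes of any level had -0.21 and -0.14 there. A difference of at least 1.2-fold was counted as past the threshold. It was reached by 13 of the 81 genes (16.0%), against 9.94% of all genes compared, 10 of them lower (12.3%, against 5.19%) and 3 higher (3.70%, against 4.75%). By mean coding transcript length, the share lower past 1.2-fold was close to that of other genes of any level. It was 8 of 34 (23.5%) against 65 of 298 (21.8%) under 700 bp and 2 of 47 (4.26%) against 457 of 9882 (4.62%) from 700 bp. Under 700 bp the other genes had a lower level, a median of 27.47 FPKM with PBS against 428.20. Of other genes at 100 FPKM or more, 1 of 9 (11.1%) up to 500 bp was lower past 1.2-fold, against 4 of 10 ribosomal protein genes of any level (40%). From 500 to 700 bp it was 5 of 51 (9.80%) against 4 of 24, again of any level (16.7%). Lower at any size in these 2 classes were 100% and 78.4% of these other genes, against 90% and 75% of the ribosomal protein genes. From 700 to 1000 bp the shares were 62.1% and 82.8%. None (0 of 81) reached 2-fold, which 0.653% of all genes compared did, 0.36% lower and 0.292% higher. With both libraries scaled to the same FPKM sum, the median was -0.065 and 8 genes were lower past 1.2-fold. The share of all genes compared under that scaling is not given here.

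**Figure D2:**
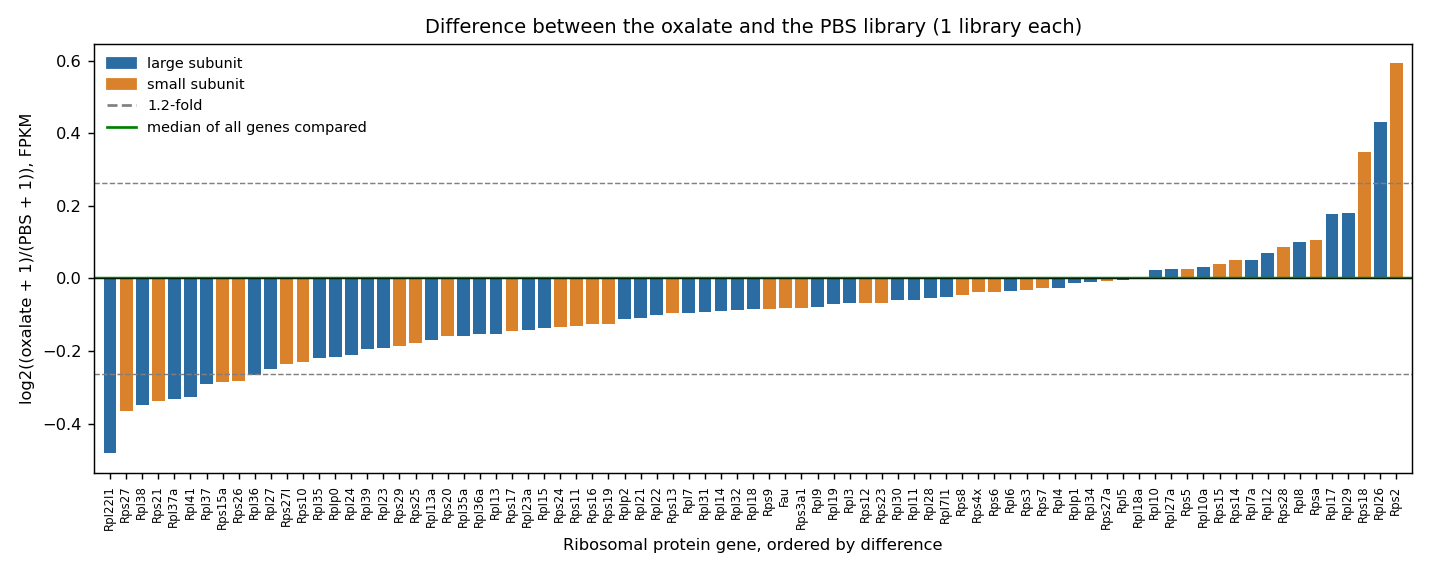
Difference between the oxalate and the PBS library for each of 81 ribosomal protein genes, ordered from lowest to highest and coloured by subunit (y axis, log2 scale), with dashed lines at 1.2-fold and a line at the median of all genes compared. The bars run from -0.48 for Rpl22l1 to 0.59 for Rps2, and 64 of them point down.

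The 10 genes lower past 1.2-fold belong to both subunits, 6 to the large and 4 to the small. Rps27 (ENSMUSG00000090733, chromosome 3, 90212522 to 90213651 in GRCm38), a zinc-binding protein of the small subunit, had 136.75 FPKM with PBS and 105.85 with oxalate, a log2 fold change of -0.37. Rpl38 (ENSMUSG00000057322, chromosome 11), whose loss in mice disturbs the translation of Hox mRNAs, had 312.26 and 244.94 FPKM, a log2 fold change of -0.35. Counting error alone, taken from estimated reads by the Clopper-Pearson method at the 95% level, bounded the log2 ratio of Rps27 by -0.46 and -0.28 and that of Rpl38 by -0.41 and -0.29. Such intervals leave out the spread between cultures. Both genes were thus apart between the libraries by more than the counting of reads gives, without a replicate to set beside it. The counting interval excluded 0 for 67 of the 81 genes (82.7%), so it does not mark out these genes. The share over all genes compared is not given here.

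The other genes of this kind were lower by similar amounts. Rps21 had 115.98 FPKM with PBS and 91.64 with oxalate, a log2 fold change of -0.34. Rpl37a, a zinc-binding large-subunit protein, had 221.85 and 175.89 FPKM (-0.33). Rpl41, the smallest ribosomal protein, had 1252.93 and 998.66 FPKM (-0.33), the second most abundant of the 10 after Rps26 (-0.28). Rpl37 had 181.63 and 148.15 FPKM (-0.29), Rps15a 137.12 and 112.26 FPKM (-0.29), and Rpl36 551.61 and 458.81 FPKM (-0.27). The lowest value was that of Rpl22l1 (ENSMUSG00000039221, chromosome 3), the close relative of Rpl22, at -0.48. It rested on an estimated 190 and 82 reads, and its 95% counting interval ran from -0.96 to -0.19.

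The 3 genes higher past 1.2-fold were Rps2, Rpl26 and Rps18. Rps2 (ENSMUSG00000044533, chromosome 17), a small-subunit protein at the entry of the mRNA channel, had 99.81 FPKM with PBS and 150.97 with oxalate. Its log2 fold change of 0.59 was the highest of the 81 genes, with counting bounds of 0.54 and 0.65. Rpl26 (ENSMUSG00000060938, chromosome 11), which lies near the exit of the peptide tunnel and binds the p53 mRNA, had 21.33 and 29.08 FPKM (0.43, interval 0.29 to 0.61). Rps18 (ENSMUSG00000008668, chromosome 17), a protein of the head of the small subunit, had 37.48 and 48.02 FPKM (0.35, interval 0.23 to 0.48), a direction that turned when its listed copies were added. Rps18 also overlaps Vps52 on the opposite strand, and whether reads were counted by strand is not given in the sources used here. Next were Rpl29 (0.18) and Rpl17, which had 426.01 FPKM with PBS and 482.06 with oxalate (0.18). Of these 5 genes Rps2, Rpl17 and Rpl29 have 20 or more near-identical copies in the annotation.

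The medians of the 2 subunits were close to each other. Of 48 large-subunit genes, 38 were lower and 10 higher, with a median log2 fold change of -0.089. Of 33 small-subunit genes, 26 were lower and 7 higher, with a median of -0.081. The difference of the medians was -0.0076. Bounds of -0.072 and 0.063, made from the counting intervals of single genes, do not measure the counting error of such a difference. Of the stalk genes, Rplp0 was lower at -0.22 and Rplp2 at -0.11 (427.65 and 395.63 FPKM). Rplp1 had 942.90 and 935.32 FPKM, and its difference of -0.012 had counting bounds of -0.039 and 0.016 and turned to 0.0092 with equal FPKM sums, so no direction was detectable for it.

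The 2 genes of fusion proteins differed in their values. Rps27a, which encodes ubiquitin joined to a small-subunit protein, had 310.86 FPKM with PBS and 309.14 with oxalate, and its difference of -0.0080 had counting bounds of -0.049 and 0.032 and turned to 0.013 with equal FPKM sums. Fau, which encodes a ubiquitin-like protein joined to a small-subunit protein, had 765.08 and 723.04 FPKM (-0.081, bounds -0.11 and -0.051), close to the median of the ribosomal protein genes. The scaffold protein Rack1, which sits on the small subunit and is outside the symbol rule, had 865.29 and 903.11 FPKM (0.062).

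Up to 1500 bp, the size of the difference went with transcript length, taken as the mean length of the coding transcripts of a gene in GENCODE M21. The 10 ribosomal protein genes of up to 500 bp had a median log2 fold change of -0.21, the 24 from 500 to 700 bp -0.14, the 29 from 700 to 1000 bp -0.069, and the 13 from 1000 to 1500 bp -0.034. The few longer ones did not continue this order, with -0.064 for 4 genes from 1500 to 2500 bp and -0.16 for Rps20, the only gene above 2500 bp. Other genes showed a trend of the same direction, with medians of -0.098 over 72 genes of up to 500 bp, -0.085 over 226 from 500 to 700 bp, -0.030 over 782 from 700 to 1000 bp, and -0.013 over 1723 from 1000 to 1500 bp. In each of these 4 classes the ribosomal protein genes had the lower median. Across the 81 genes the Spearman correlation of the difference with length was 0.305, and across 10180 other genes 0.141, both as descriptions of genes that share the same 2 libraries. The median length was 728 bp for the ribosomal protein genes and 2187 bp for all genes compared.

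The part of transcript length in the lower values was not tested. When the median of the other genes of like length was taken away, a step chosen after the values were seen, the median of the 81 genes went from -0.085 to -0.047. The number lower past 1.2-fold then went from 10 to 3, and the number higher from 3 to 4. The share of all genes compared after this step is not given here. Genes under 700 bp held 3.50% of the FPKM sum with PBS and 3.19% with oxalate, and those of 700 bp or more 4.90% and 4.84%, so that most of the lower share lay in the short genes. GC content left the values much as they were, with a median of -0.096 after the median of other genes of like GC content was taken away.

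**Figure D3:**
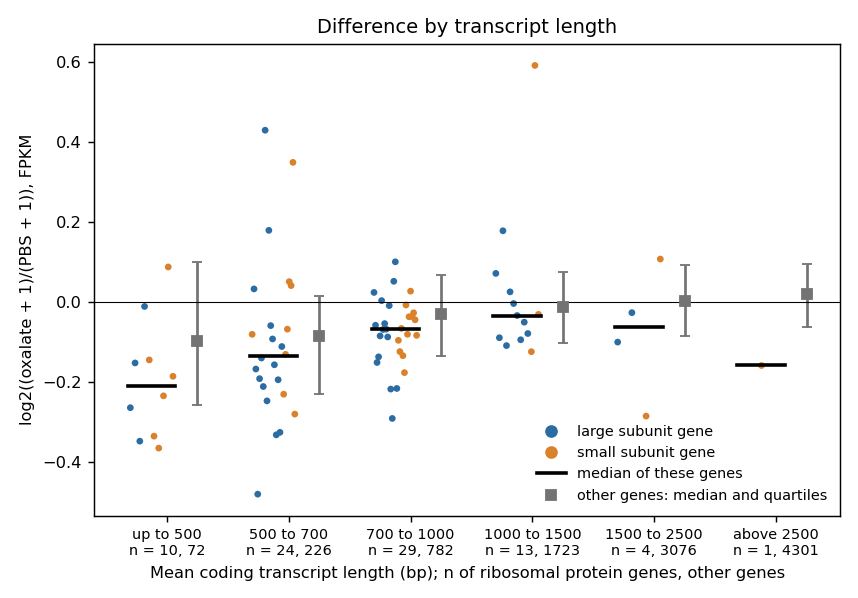
Difference between the oxalate and the PBS library (y axis, log2 scale) by class of mean coding transcript length (x axis, bp). Points are ribosomal protein genes coloured by subunit, black bars their medians, and grey squares with bars the median and quartiles of the other genes. The black bars go from -0.21 in genes of up to 500 bp to -0.034 in genes of 1000 to 1500 bp, and the grey squares from -0.098 to -0.013.

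Near-identical copies bear on the levels of several genes. A copy was counted where a transcript of another gene in the annotation matched at least 90% of the coding sequence at an identity of at least 95%. In all, 76 of the 84 genes had at least 1 copy, with a median of 5 and 561 copies over all genes, of which 95.7% were pseudogenes. The authors listed values for 35 of these copies. Rpl21 had the most copies, 56, and stood at 12.39 FPKM with PBS and 11.41 with oxalate. Rpl29 had 27 copies and stood at 21.56 and 24.54 FPKM. Yet Rpl7a, with 31 copies, and Rps12, with 23, were above 1000 FPKM in both libraries, and the Spearman correlation of mean level with the number of copies was -0.126 over the 81 genes. A high number of copies thus went with a low level in some genes and not in others. Values of genes with copies are uncertain, since the way reads with several matches were placed is not given in the sources used here.

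For Rps18 the copies changed the direction. The authors listed 2 copies of it, Gm10260 (ENSMUSG00000069117, chromosome 13, identity 99.1%) and Gm11361 (ENSMUSG00000113061, identity 99.3%). Gm10260 had 507.93 FPKM with PBS and 448.77 with oxalate, far above Rps18 itself at 37.48 and 48.02 FPKM. Gm11361 had 64.72 and 51.99 FPKM. The sum of the 3 genes was 610.13 FPKM with PBS and 548.78 with oxalate, a log2 fold change of -0.15, so that the direction seen for Rps18 alone turned when its copies were added. For Rps2 the sum with its 2 listed copies stayed higher with oxalate, at 148.45 and 200.06 FPKM (0.43). Rpl26 had 6 copies, none of them listed, and no such sum could be formed. For Rps12, the copy Rps12-ps3 had 340.99 and 305.68 FPKM, and the sum was 1588.93 and 1495.69 FPKM (-0.087).

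**Figure D4:**
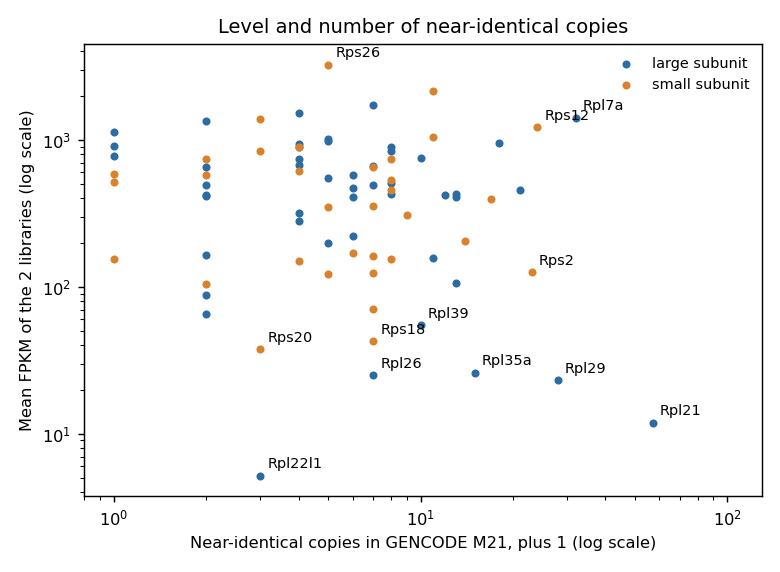
Mean FPKM of the 2 libraries (y axis, log scale) against the number of near-identical copies in GENCODE M21 plus 1 (x axis, log scale) for 81 ribosomal protein genes, coloured by subunit. Rpl21 (56 copies) and Rpl29 (27 copies) lie near the bottom, Rpl7a (31 copies) and Rps12 (23 copies) above 1000 FPKM, and Rpl22l1 (2 copies) is the lowest point.

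Annotated length also sets a level. Rps20 has a single coding transcript of 3706 bp in this annotation, the longest of the 81 genes, and stood at 39.60 FPKM with PBS and 35.38 with oxalate. Whether the authors divided by the same length is not given in the sources used here.

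Some related copies with their own proteins were listed at 0 and others were well above it. Rpl3l, known from heart and skeletal muscle, and Rpl10l and Rpl39l, known from testis, were listed at 0 in both libraries, while their main genes Rpl3, Rpl10 and Rpl39 had 438.07, 742.43 and 58.66 FPKM with PBS and 417.70, 754.63 and 51.11 FPKM with oxalate. Rps27l, a known p53 target, was the only member of a pair above its main gene, at 167.35 and 141.99 FPKM (-0.24), which was 122% of Rps27 with PBS and 134% with oxalate. Rpl7l1 was at 66.15 and 63.82 FPKM, 8.25% and 8.50% of Rpl7. Rpl22l1 was at 6.82% of Rpl22 with PBS and 4.91% with oxalate, while Rpl22 itself had 91.23 and 85 FPKM (-0.10). A further pair of relatives lies outside the rule. Rpl36al had 168.98 and 160.03 FPKM (-0.078), 39.4% and 41.5% of Rpl36a, and Rps27rt, whose coding sequence equals that of Rps27 in full, had 17.33 and 10.78 FPKM (-0.64). The X-linked Rps4x had 542.85 and 528.91 FPKM (-0.037).

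Start sites were looked at for the tract that the TOP mRNAs share. RefSeq promoters on GRCm38.p6 were at hand for 64 of the 84 genes, 76 start sites in all. A run of at least 5 pyrimidines (C or T) from the first transcribed base was present at 17 of the 76 start sites (22.4%) and at 4.44% of the 32851 in the table. The letters CTTTC occurred within 20 bases on either side of the start in 26.3% of the ribosomal protein start sites and 5.49% of all on the transcribed strand, and in 5.26% and 4.86% on the other strand. The following windows show such runs in some of the genes named above. Each holds 15 bases before the start and 15 from it, 5′ to 3′ on the transcribed strand, with the run from the start in capitals.
Rps27 (lower with oxalate), chr3:90213634-90213663, minus strand: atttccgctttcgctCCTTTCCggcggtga
Rpl38 (lower), chr11:114668565-114668594, plus strand: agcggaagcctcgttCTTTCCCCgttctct
Rps21 (lower), chr2:180257364-180257393, plus strand: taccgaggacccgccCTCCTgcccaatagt
Rps15a (lower), chr7:118116133-118116162, minus strand: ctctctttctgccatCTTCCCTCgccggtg
Rps18 (higher), chr17:33955651-33955680, minus strand: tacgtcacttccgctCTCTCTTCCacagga
Fau (lower, below 1.2-fold), chr19:6057932-6057961, plus strand: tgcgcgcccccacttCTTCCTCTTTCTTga

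Of the genes shown, only Rps18 was higher with oxalate, and its direction turned to -0.15 with its listed copies added. Rpl7a (0.051) and Rpl27a (0.025), not shown, also had a run and were higher. The 17 genes with a run had a median log2 fold change of -0.13, from -0.37 to 0.35, and the 44 compared genes with only other starts in the table had a median of -0.083, from -0.48 to 0.59. Lower with oxalate were 14 of the 17 genes with a run and 36 of the 44 without, so the share lower was alike. Median lengths were 730 and 747 bp. Annotated starts can miss the true first base, so a start without a run in the table says nothing about the TOP character of the mRNA.

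In most other lists of the translation machinery, some of which share genes, more genes were lower than higher. Over all genes compared, 49% were lower, and past 1.2-fold 5.19% were lower and 4.75% higher. For each list, bounds were the median lower end and the median upper end of its genes' counting intervals. They describe a typical gene and not the error of the median, so they do not decide its direction. These bounds included 0 in 8 of these 10 lists. They excluded it for the H/ACA proteins (-0.21 and -0.080) and the other TOP mRNAs (-0.059 and -0.0015). Of 79 mitochondrial ribosomal protein genes, whose products form the separate ribosome of mitochondria, 57 were lower (72.2%, against 49% of all genes compared) and 22 higher. Their median log2 fold change was -0.058. Past 1.2-fold were 7 lower (8.86%, against 5.19%) and 1 higher (1.27%, against 4.75%). Mrpl2 had 25.04 and 17.29 FPKM in the PBS and oxalate libraries (-0.51), Mrps25 14.28 and 10.95 (-0.35) and Mrpl48 12.39 and 9.74 (-0.32), whereas Mrpl36 had 46.84 and 56.58 FPKM (0.27).

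Among 41 initiation factors, 26 were lower (63.4%, against 49% of all genes compared) and 15 higher, with a median of -0.038. Only Eif1b, a start-codon selection factor, passed 1.2-fold (2.44% lower, against 5.19%), with 38.35 and 29.86 FPKM (-0.35). Of 11 elongation and termination factors 7 were lower (63.6%), with a median of -0.030, and 2 passed 1.2-fold, both lower (18.2%, against 5.19%). Eif5a, which helps ribosomes through stretches of proline, had 1025.79 FPKM with PBS and 838.30 with oxalate (-0.29). Of 17 other mRNAs known to carry a TOP tract, 10 were lower (58.8%) and 7 higher, with a median of -0.030, and none passed 1.2-fold.

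Ribosome assembly factors had similar medians. For the small subunit 32 of 50 were lower (64%, median -0.045), against 49% of all genes compared. For the large subunit it was 31 of 45 (68.9%, median -0.034), and for RNA polymerase I and its factors 10 of 15 (66.7%, median -0.035). No gene of these lists was past 1.2-fold. Of 6 proteins of the H/ACA particles, which guide pseudouridine formation in rRNA, 4 were lower (66.7%, median -0.13). Past 1.2-fold were 2 of them (33.3%, against 5.19%). Gar1 had 37.16 and 30.13 FPKM (-0.29) and Nop10 36.39 and 29.74 FPKM (-0.28). Of 7 chaperones of single ribosomal proteins 5 were lower (71.4%, median -0.0063). Only Grwd1, a chaperone of Rpl3, was past 1.2-fold (14.3% lower, against 5.19%), with 71.44 and 58.26 FPKM (-0.29).

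Of the regulators of TOP mRNAs 9 of 16 were higher (56.2%, against 50.6% of all genes compared), with a median of 0.032. The counting bounds of a typical gene of this list were -0.011 and 0.059. Mlst8, a subunit of the mTOR complexes, had 5.72 FPKM with PBS and 11.17 with oxalate (0.86), and Mtor, the kinase itself, 17.17 and 21.01 FPKM (0.28). Only these 2 passed 1.2-fold (12.5% higher, against 4.75% of all genes compared), and 7 of the 16 were lower. Below 1.2-fold, Rheb was lower (-0.20), and Tsc1 (0.13), Tsc2 (0.12) and Eif4ebp2 (0.22) were higher. Larp1 had 79.77 and 82.28 FPKM (0.044), and Myc, a transcription factor that drives ribosome production, 245.46 and 236.82 FPKM (-0.051). None of the 9 snoRNA host genes chosen for comparison was listed.

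**Figure D5:**
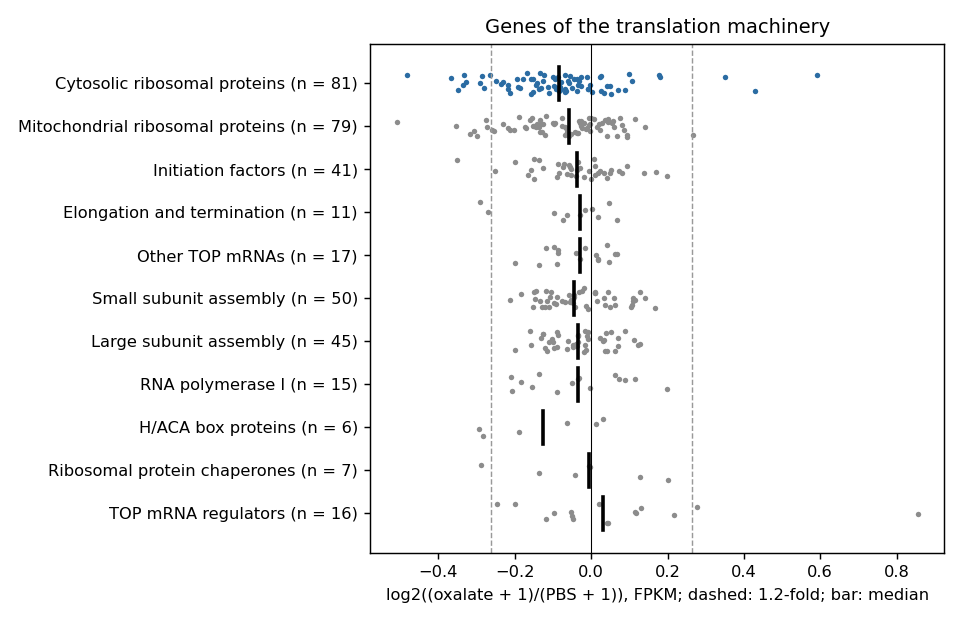
Difference between the oxalate and the PBS library (x axis, log2 scale) for genes of the translation machinery with a mean of at least 1 FPKM, 1 point per gene, with the median of each list as a bar and dashed lines at 1.2-fold. The medians run from -0.13 for the H/ACA box proteins to 0.032 for the TOP mRNA regulators, with -0.085 for the cytosolic ribosomal proteins.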

How the data were processed

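Poly(A) RNA of 4T1 cells was selected on oligo(dT) beads and sequenced (Illumina), with 1 library per condition. The authors deposited FPKM, given to 2 decimals, for 21911 Ensembl genes. The submitters' processing notes name TopHat2 2.1.1 and Bowtie2 2.2.8 without a role. The quantification tool, genome build and annotation are not given in the sources used here. Symbols, coordinates, biotypes and transcript lengths came from GENCODE M21 (GRCm38), in which 21848 identifiers were found and 63 were not. The build the authors used may differ.

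Fold changes were log2((oxalate + 1)/(PBS + 1)) at a mean of at least 1 FPKM (10267 genes), with a threshold of 1.2-fold. Depth was estimated from the step of FPKM times length in genes with 1 transcript shorter than 700 bp. Reads per gene are estimates from that step and the mean coding length. Copies were sought with BLAST 2.17.0, using the principal coding sequence against all M21 transcripts. Named were genes past 1.2-fold, the 5 highest and lowest levels, the 5 largest differences each way, stalk and fusion genes, pairs of relatives, and up to 3 genes each way of every related list. Rps12, Rps20, Gm10260, Gm11361, Rps12-ps3, Larp1, Myc, Rheb, Tsc1, Tsc2 and Eif4ebp2 lie outside this rule and were chosen after their values were seen. The members and lists were chosen with earlier results of these data known. Alternatives were other pseudocounts, filters, thresholds, scalings, gene sets and denominators. A gene outside the rule and the alternatives that need it are not reported here. The step fit and the fold threshold were tested on simulated data. Software was matplotlib 3.10.9, scipy 1.17.1, pandas 2.3.3 and numpy 2.4.6 under Python 3.11.15.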

Additional observations from a re-analysis of the deposited data

How the results depend on the processing

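No paired analysis was possible because there is a single library of either condition, and leaving out a replicate was not possible. An alternative with a wider gene set was not run. Medians are called moved beyond the counting bounds of a typical gene, counts beyond 1.5 times. The median of -0.085 ran from -0.096 to -0.065 under the other pseudocounts, filters, scalings, gene sets, the mean and the settings for GC content and copies, and was -0.047 after the medians of other genes of like length were taken away. That setting gave 7 genes past 1.2-fold, 3 of them lower. At 1.1-fold there were 33 genes, 5 higher and 28 lower, at 1.5-fold 1 higher and 0 lower, and at 2-fold 0. The shares of all genes compared past 1.1-fold, past 1.5-fold and after the like-length step are not given here. Whether those counts are unusual cannot be judged from them. The difference of the subunit medians turned to 0.035 without genes with 10 or more copies, and the median of the ribosomal protein chaperones to 0.013 with equal FPKM sums.

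The share of the FPKM sum with PBS and with oxalate was 8.41% and 8.03% over protein-coding genes, 9.36% and 8.90% without mitochondrially encoded genes, 9.56% and 9.12% without the 10 highest other genes, 8.51% and 8.13% with listed pseudogenes, and 4.02% and 3.85% of estimated reads. The difference of -0.375 points was -0.458 without mitochondrially encoded genes, -0.439 without the 10 highest other genes and -0.177 of estimated reads. Of 196 values of 49 named genes 7 moved, all with equal FPKM sums, and 2 changed sign there, Rplp1 from -0.012 to 0.0092 and Rps27a from -0.0080 to 0.013, neither past 1.2-fold. The like-length, like-GC, copy and read-share settings were chosen after seeing the data. The cause was not tested. Depth limits the low genes: for Rpl21 and Rpl35a the 95% counting intervals, -0.28 to 0.037 and -0.33 to 0.0033, include 0, and no difference could be detected with these reads.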
